A study of Homo sapiens with 8 samples.

Results

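The proteasome subunit genes are the rows of the deposited RNA table whose symbol is PSMA, PSMB, PSMC, PSMD, PSME, PSMF or PSMG followed by a number, without the immunoproteasome rows PSMB8, PSMB9 and PSMB10. There were 43 of them among 18892 rows, and all 43 passed the filter of at least 1 RPM (a read count divided by the size of its library) in 2 or more of the 4 libraries, as did 11833 genes in all. The comparison was of 2 shCDCA8 libraries, from C4-2 cells carrying a short hairpin RNA against CDCA8, with 2 shCTRL libraries, from C4-2 cells carrying a control hairpin. C4-2 is an established human prostate cancer line, and CDCA8 codes for borealin, part of the passenger complex that directs chromosome segregation. Both groups were grown in RPMI medium with serum, and polyA RNA was sequenced. The labels of all 4 libraries carry the same text, which names both a Zymo kit with Illumina libraries and, for RNA-seq, a Qiagen kit with DNBseq libraries, and does not say which library had which, so a difference in protocol between the groups was not tested. The titles name 1 hairpin against CDCA8 and no rescue, so what it does through other transcripts and what it does through CDCA8 cannot be told apart. No label says that the libraries of a group came from separate cultures. The p-values thus rest on the spread between these libraries, pooled in part over genes, which may be technical.

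The proteasome is the protease complex that degrades proteins tagged with ubiquitin in the cytosol and nucleus. Its 20S core particle is a barrel of PSMA-encoded alpha rings, which gate entry, around PSMB-encoded beta rings, which hold the proteolytic sites. The 19S regulatory particle caps the barrel: its ATPases (PSMC genes) unfold the substrate, and its non-ATPase subunits (most PSMD genes) bind and remove ubiquitin and hold the cap together. Other caps (PSME genes) open the core without ATP, PSMF1 binds the core and inhibits it in vitro, and dedicated chaperones (the PSMG genes for the core, PSMD5, PSMD9 and PSMD10 for the ATPase ring) assist assembly and leave the finished particle. Dividing tumour cells depend on the complex, and PSMB5 is the target of the proteasome inhibitors used against myeloma.

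The divisors behind RPM were 46709612 to 55289855 reads, of which the gene rows held 33.3% and 34.2% in the shCDCA8 libraries and 41.1% and 43.6% in the shCTRL libraries. The table as a whole was shifted too, with a median log2 fold change of -0.27 over the kept genes, or 0.01 after median-ratio scaling, in which each library is divided by the median, over genes, of its ratios to the 4-library average. Fold changes and calls below are on the deposited scale unless another scale or test is named. A fold change given alone generally differs on the median-ratio scale. The targeted gene, CDCA8, had 3.98 and 3.94 RPM in the shCDCA8 libraries, against 14.2 and 16.5 RPM in the shCTRL libraries (log2 fold change -1.72). All 10 luminal prostate markers were measured (27.7 to 1477 RPM), whereas the 5 fibroblast markers summed to 3.85 and 4.29 RPM in shCDCA8 and 9.83 and 12.2 RPM in shCTRL, and 4 of the 5 stayed under 0.5 RPM in every library. The leukocyte and endothelial markers summed to 1.47 and 1.90 RPM in shCDCA8 and 5.40 and 6.59 RPM in shCTRL, of which VWF reached 6.47 RPM. CD3E, CD79A, PECAM1, DCN and LUM were at 0 in at least 1 library. The 2 basal markers in the table summed to 2.83 and 3.36 RPM in shCDCA8 and 6.64 and 7.11 RPM in shCTRL, and the part of any of these markers in the results was not tested.

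After CDCA8 knockdown, of the 31 member genes for 20S and 19S subunits, 10 rose and 1 fell (28 and 0 on the median-ratio scale). Of the 12 member genes for assembly chaperones, activators and the inhibitor, 2 rose and 7 fell (3 and 4 on that scale). As shares, 16.7% of these 12 rose and 58.3% fell, beside 18.8% and 47.6% of all kept genes, and 25% and 33.3% on the median-ratio scale, beside 33.2% and 33.6%, so the 12 were near the background. The difference between the 31 and the 12 was not tested. The largest rises were of the ATPase genes PSMC6 (log2 fold change 0.93) and PSMC2 (0.90) and the alpha ring gene PSMA3 (0.85). On the median-ratio scale these 3 stood at 1.21, 1.21 and 1.15. The largest falls were of the core assembly chaperone genes PSMG3 (-1.0) and PSMG4 (-0.88) and of PSMF1 (-0.56) and PSME3 (-0.55). A call is an adjusted p under 0.05 in limma's test of log2(RPM + 1), two-sided and Benjamini-Hochberg adjusted over the 11833 kept genes, and fold changes are shCDCA8 over shCTRL on that scale, which understates changes of low genes.

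Over all 43 members, 12 rose (27.9%) and 8 fell (18.6%), beside 18.8% and 47.6% of all kept genes (66.4% in either direction). The median log2 fold change of the members was 0.12, against -0.27 for all kept genes. With median-ratio scaling 31 rose (72.1%) and 4 fell (9.3%), beside 33.2% and 33.6% of all kept genes (66.8% in either direction), and the members' median was 0.43. Counts by class and by list below are to be read beside the shares of all kept genes given here. All 31 core and cap subunit genes lay above the median of all kept genes, 24 of them above 0 as deposited and 31 above 0 under median-ratio scaling. Both shCDCA8 libraries stood above both shCTRL libraries for 24 members, and below both for 10, where 26.5% and 56.8% of all kept genes did so. Without shCDCA8 replicate 1 the number of rises was 7. The number of falls was 5 without either shCTRL library and 4 without either shCDCA8 library.

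**Figure D1:**
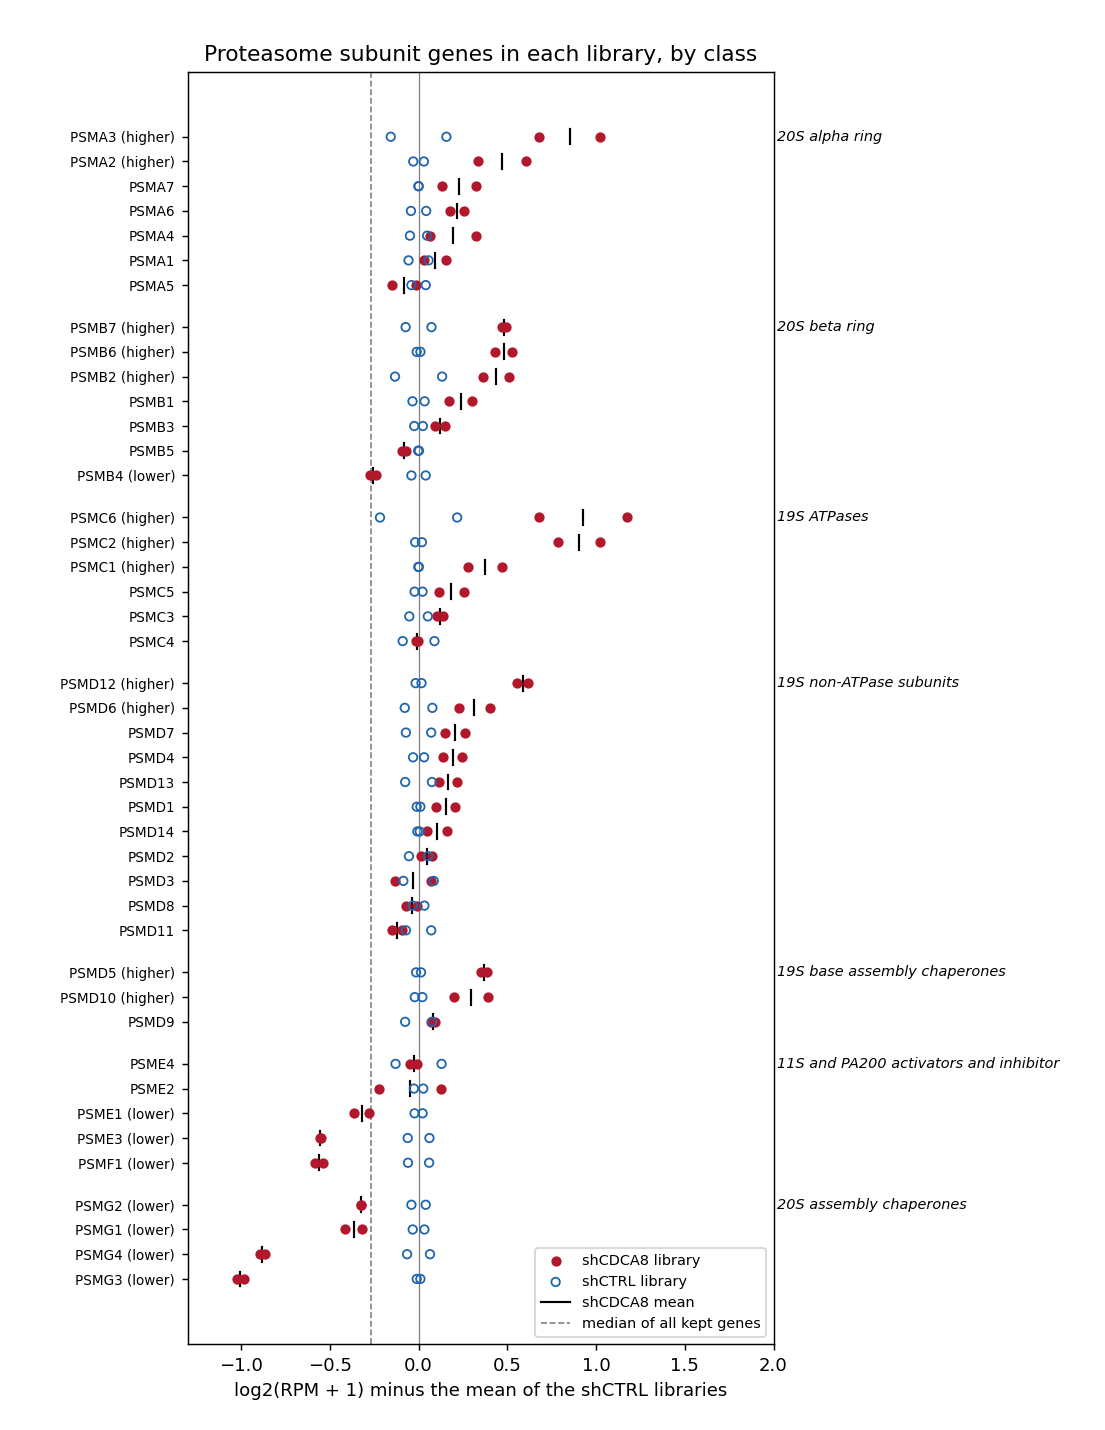
Each of the 43 proteasome subunit genes by class, as log2(RPM + 1) in each shCDCA8 library (filled) and shCTRL library (open) minus the mean of the shCTRL libraries, with the shCDCA8 mean as a bar, the median of all kept genes (-0.27) as a dashed line, and the call in brackets. The 20S and 19S subunit genes lie at or right of that line, and the 4 genes for 20S assembly chaperones lie left of it.

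The calls of 10 members held in each of 16 alternative analyses, which changed the pseudocount, filter, scaling or test, added the replicate number as a block or left out 1 library. They were 6 rises (PSMA3, PSMB6, PSMB7, PSMC2, PSMC6 and PSMD12) and 4 falls (PSME3, PSMF1, PSMG3 and PSMG4). The other 10 calls were lost in at least 1 alternative, and 9 members that were at or under 0 on the deposited scale (PSMA5, PSMB4, PSMB5, PSMC4, PSMD3, PSMD8, PSMD11, PSME2 and PSME4) turned positive under median-ratio scaling.

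Promoter sequence was available for 37 of the 43 members from RefSeq (GRCh38.p14), in windows of 250 bases before to 50 after the start of the gene, but not for PSMA7, PSMB1, PSMB6, PSMB7, PSMD4 and PSMG3. Shown here are the 250 bases before the start of the 3 members with the largest rises and of the 3 lowest members with a sequence, so that genes that moved in opposite directions can be read side by side. Capitals mark CCAAT (the NF-Y box) and CCGGAAG (an ETS-type site) on either strand.
PSMC6, chr14:52706950-52707199, plus strand: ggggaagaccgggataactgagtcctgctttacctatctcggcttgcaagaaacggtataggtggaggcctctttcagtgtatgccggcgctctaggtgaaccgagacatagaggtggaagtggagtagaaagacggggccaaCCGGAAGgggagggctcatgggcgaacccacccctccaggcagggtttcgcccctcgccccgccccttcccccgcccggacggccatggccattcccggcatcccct
PSMC2, chr7:103347393-103347642, plus strand: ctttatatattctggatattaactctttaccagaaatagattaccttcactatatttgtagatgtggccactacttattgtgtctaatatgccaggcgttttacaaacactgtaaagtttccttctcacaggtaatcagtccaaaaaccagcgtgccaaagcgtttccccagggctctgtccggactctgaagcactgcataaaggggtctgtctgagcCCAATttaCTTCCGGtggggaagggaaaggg
PSMA3, chr14:58244593-58244842, plus strand: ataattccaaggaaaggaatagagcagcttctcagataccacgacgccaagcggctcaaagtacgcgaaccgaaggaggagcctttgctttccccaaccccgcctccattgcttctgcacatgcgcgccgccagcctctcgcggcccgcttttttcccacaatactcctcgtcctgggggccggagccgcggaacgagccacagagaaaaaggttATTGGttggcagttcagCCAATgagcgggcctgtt
PSMG4, chr6:3258697-3258946, plus strand: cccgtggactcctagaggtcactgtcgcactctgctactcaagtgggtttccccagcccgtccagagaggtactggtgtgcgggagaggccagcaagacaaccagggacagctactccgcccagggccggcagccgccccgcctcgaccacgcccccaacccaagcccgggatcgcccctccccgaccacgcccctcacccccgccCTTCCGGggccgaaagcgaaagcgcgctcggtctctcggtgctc
PSMF1, chr20:1113013-1113262, plus strand: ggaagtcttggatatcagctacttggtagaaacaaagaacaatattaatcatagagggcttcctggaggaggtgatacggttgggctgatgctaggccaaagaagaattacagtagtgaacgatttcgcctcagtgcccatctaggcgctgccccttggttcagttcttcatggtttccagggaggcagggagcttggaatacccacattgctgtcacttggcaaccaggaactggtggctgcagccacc
PSME3, chr17:42833147-42833396, plus strand: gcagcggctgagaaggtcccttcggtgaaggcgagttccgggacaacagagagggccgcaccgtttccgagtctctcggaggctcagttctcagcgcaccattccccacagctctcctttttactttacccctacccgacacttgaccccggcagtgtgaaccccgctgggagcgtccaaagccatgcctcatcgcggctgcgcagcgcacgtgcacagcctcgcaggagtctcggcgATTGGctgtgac
PSMA3 held CCAAT on both strands, PSMC2 held both motifs, PSMC6 and PSMG4 held CCGGAAG alone, PSME3 held CCAAT alone and PSMF1 neither.

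Over the whole 300-base windows, CCAAT was found in 17 of 37 member promoters (45.9%), against 34.6% of all 35116 promoters and 36.9% of those of 8848 kept genes. CCGGAAG was found in 12 (32.4%), against 10.3% and 20.1%, and TTGGCGC (E2F type) in 8 (21.6%), against 3.04% and 5.15%. In the 250 bases before the start alone, TTGGCGC was in 5 (13.5%, against 2.56% and 4.32%) and GCATGCG in 1 (2.70%, against 3.39% and 5.99%). CCAAT was in 16 there (43.2%, against 32% and 35.5%) and CCGGAAG in 9 (24.3%, against 8.52% and 16.7%). TTCGCGC, the other E2F-type motif, was found in 1 promoter (2.70%, against 2.24% and 4.14%). TGANNNNGC (N, any base), a loose pattern for the antioxidant response element bound by the NFE2L1 family, was in 22 (59.5%, against 41.8% and 43.2%). A match to it need not be such an element. GGGCGG (an SP1-type box) was in 25 (67.6%, against 45% and 71.8%), GCATGCG (NRF1 type) in 2 (5.41%, against 3.91% and 6.82%), TGACTCA (AP-1 type) in 1 (2.70%, against 4.95% and 2.69%) and TGATGCA (ATF4 type) in 0 (against 2.63% and 1.2%). TGACTCA can overlap TGANNNNGC, and every motif was searched on both strands. Among the 10 members with a promoter that rose, 5 held CCGGAAG, 6 CCAAT, 4 TGANNNNGC, 4 GGGCGG and 2 TTGGCGC. Among the 7 that fell, 1 held CCGGAAG, 2 CCAAT, 4 TGANNNNGC, 4 GGGCGG and 2 TTGGCGC. In the 250 bases before the start alone, TTGGCGC was in 0 of the 10 that rose and 2 of the 7 that fell. These are matches of letters and were not tested.

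Of the 7 alpha ring genes, 2 rose and none fell (median log2 fold change 0.22), and 6 rose under median-ratio scaling (median 0.52). PSMA3 had 27.7 and 21.6 RPM in the shCDCA8 libraries, against 14.7 and 11.7 RPM in the shCTRL libraries (log2 fold change 0.85 ± 0.15, SE, limma adjusted p = 0.000351). Both groups were apart, although replicate 1 was the higher library in each. PSMA2 had 44.2 and 36.5 RPM in shCDCA8 and 29.3 and 28.1 RPM in shCTRL (0.47, adjusted p = 0.00438). Its call was lost without shCDCA8 replicate 1 (0.34, adjusted p = 0.0664). PSMA5 was the lowest of the ring, with 41.1 and 37.3 RPM in shCDCA8 and 40.4 and 42.8 RPM in shCTRL, overlapping values (-0.08, or 0.22 under median-ratio scaling). The other 4 were not called as deposited, at 0.23 for PSMA7, 0.22 for PSMA6, 0.20 for PSMA4 and 0.09 for PSMA1, and all 4 were called higher under median-ratio scaling, at 0.40 to 0.54. Without shCDCA8 replicate 2, PSMA4 and PSMA7 were both called at 0.33 on the deposited scale (adjusted p = 0.0498 and 0.0329).

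In the beta ring, 3 of 7 genes rose and 1 fell (median 0.24), and 6 rose under median-ratio scaling (median 0.55). Of the genes of the 3 proteolytic subunits, 2 rose and 1 was not called. PSMB6, the subunit with caspase-like activity, had 62.1 and 58.1 RPM in shCDCA8 and 42.4 and 43.1 RPM in shCTRL (0.48 ± 0.103, adjusted p = 0.00136). PSMB7, with trypsin-like activity, had 32.2 and 31.6 RPM in shCDCA8 and 21.4 and 23.8 RPM in shCTRL (0.48 ± 0.113, adjusted p = 0.00265). PSMB5, with chymotrypsin-like activity, was not called, with 56.7 and 57.7 RPM in shCDCA8 and 60.7 and 60.4 RPM in shCTRL (-0.08 ± 0.0989, adjusted p = 0.489, or 0.23 and adjusted p = 0.0366 under median-ratio scaling). Both shCDCA8 libraries thus stood above both controls for PSMB6 and PSMB7 and slightly below them for PSMB5; the difference between these genes was not tested.

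Among the beta subunits without a proteolytic site, PSMB2 rose to 85.7 and 95 RPM in shCDCA8, against 60.6 and 73.0 RPM in shCTRL (0.44, adjusted p = 0.00516), a call that was lost without shCTRL replicate 1 (0.30, adjusted p = 0.0649). PSMB4 was the 1 core subunit gene that fell, with 118 and 121 RPM in shCDCA8 and 139 and 147 RPM in shCTRL (-0.26 ± 0.0923, adjusted p = 0.0269, or 0.05 under median-ratio scaling). That fall was smaller than the shift of the whole table, and the call was lost on leaving out any 1 library (-0.30, -0.22, -0.24 and -0.27, adjusted p 0.0565 to 0.175) and without trend (adjusted p = 0.0706). PSMB1 (0.24) and PSMB3 (0.12) were not called as deposited and were called higher under median-ratio scaling, at 0.55 and 0.43.

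The ATPase ring held the largest rises of all members. Of its 6 genes 3 rose and none fell (median 0.28), and all 6 rose under median-ratio scaling (median 0.59). PSMC2 had 76.3 and 64.5 RPM in shCDCA8 and 37.5 and 36.5 RPM in shCTRL, 1.90 times the control mean (0.90 ± 0.112, adjusted p = 2.48e-05). PSMC6 had 19.7 and 13.7 RPM in shCDCA8 and 9.70 and 6.92 RPM in shCTRL, 2.01 times the control mean (0.93 ± 0.183, adjusted p = 0.000803). PSMC1 rose to 57.8 and 50.4 RPM in shCDCA8, against 41.5 and 41.4 RPM in shCTRL (0.37, adjusted p = 0.00939), and was not called without shCDCA8 replicate 1 (0.28, adjusted p = 0.114).

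The other 3 ATPase genes were not called on the deposited scale. PSMC4 had 71.7 and 72.4 RPM in shCDCA8 and 68.1 and 77.2 RPM in shCTRL, overlapping values (-0.01, or 0.30 under median-ratio scaling). PSMC5 (0.18) and PSMC3 (0.12) were not called and stood at 0.49 and 0.43 under median-ratio scaling. The 6 ATPases form a ring with 1 copy of each, yet the ratio of PSMC2 to PSMC4 RPM, which a single factor per library does not change, was 1.06 and 0.891 in shCDCA8 and 0.551 and 0.473 in shCTRL. The ratio of PSMC6 to PSMC4 was 0.275 and 0.190 in shCDCA8 and 0.143 and 0.0896 in shCTRL. RPM is not divided by transcript length, so these ratios compare libraries, not the amounts of the 2 transcripts.

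Of the 11 member genes for non-ATPase subunits of the cap, 2 rose and none fell (median 0.15). Under median-ratio scaling 10 rose (median 0.46). Rises were 18.2% of the 11, beside 18.8% of all kept genes, and 90.9% beside 33.2% under median-ratio scaling. PSMD12, a subunit of the lid, had 34.4 and 33.0 RPM in shCDCA8 and 21.8 and 22.4 RPM in shCTRL (0.59 ± 0.11, adjusted p = 0.000556). PSMD6, also of the lid, had 36.7 and 32.4 RPM in shCDCA8 and 26.1 and 29.2 RPM in shCTRL (0.31, adjusted p = 0.0334). It was not called without shCTRL replicate 1 or shCDCA8 replicate 1 (0.23 in both, adjusted p = 0.193 and 0.237), or without the filter on low values (adjusted p = 0.0516). PSMD11, a lid subunit, was the lowest, with 64.3 and 61.7 RPM in shCDCA8 and 65.2 and 72.1 RPM in shCTRL (-0.12, or 0.19 under median-ratio scaling), and it alone of the 11 was not called on either scale.

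The other 8 non-ATPase genes were not called as deposited. The lid subunits PSMD7, PSMD13, PSMD3 and PSMD8 stood at 0.21, 0.17, -0.03 and -0.04, the ubiquitin receptor PSMD4 at 0.19, the base scaffolds PSMD1 and PSMD2 at 0.15 and 0.04, and PSMD14, the deubiquitinase of the lid, at 0.11. Under median-ratio scaling these 8 were called higher, at 0.27 to 0.51. The ratio of summed RPM of the 19S to the 20S subunit genes was 1.36 and 1.41 in shCDCA8 and 1.40 and 1.44 in shCTRL. These ratios overlapped between the groups.

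Of the 3 chaperones of the ATPase ring 2 rose and none fell (median 0.30), and all 3 rose under median-ratio scaling (median 0.60). PSMD5 had 29.1 and 28.3 RPM in shCDCA8 and 21.8 and 22.2 RPM in shCTRL (0.37, adjusted p = 0.0112; without shCDCA8 replicate 1 0.35, adjusted p = 0.0645). PSMD10, the oncoprotein gankyrin, had 33.8 and 29.4 RPM in shCDCA8 and 25.1 and 25.9 RPM in shCTRL (0.30, adjusted p = 0.04). It was not called without shCTRL replicate 1 (0.27, adjusted p = 0.128), shCTRL replicate 2 (0.32, adjusted p = 0.0816) or shCDCA8 replicate 1 (0.20, adjusted p = 0.31), nor without the filter on low values (adjusted p = 0.0537) or without trend (adjusted p = 0.0531). PSMD9 had 24.9 and 25.4 RPM in shCDCA8 and 22.5 and 25.0 RPM in shCTRL, overlapping values (0.08, or 0.38 and called under median-ratio scaling). The summed RPM of these 3 genes relative to the 6 ATPases was 0.235 and 0.245 in shCDCA8 and 0.246 and 0.249 in shCTRL.

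The chaperones of the 20S core went the other way. PSMG1 and PSMG2 form a pair that starts the alpha ring, and PSMG3 and PSMG4 form a second pair that helps to complete it. All 4 genes fell (median -0.62), and 2 still fell under median-ratio scaling (median -0.34). PSMG3 had 12.5 and 12.1 RPM in shCDCA8 and 25.8 and 25.5 RPM in shCTRL, 0.479 of the control mean (-1.0 ± 0.116, adjusted p = 1.5e-05, or -0.71 under median-ratio scaling). PSMG4 had 8.27 and 8.46 RPM in shCDCA8 and 15.5 and 17 RPM in shCTRL (-0.88 ± 0.126, adjusted p = 7.46e-05, or -0.59 under median-ratio scaling). In both genes the libraries of a group lay close together and far from the other group.

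The falls of the first pair were about as large as the shift of the table. PSMG1 had 8.63 and 8.01 RPM in shCDCA8 and 11.3 and 10.7 RPM in shCTRL (-0.36, adjusted p = 0.0248), but stood at -0.08 under median-ratio scaling. It was not called without shCTRL replicate 1 (-0.33, adjusted p = 0.0789), shCDCA8 replicate 1 (-0.41, adjusted p = 0.0565) or shCDCA8 replicate 2 (-0.32, adjusted p = 0.145). PSMG2 had 17.4 RPM in both shCDCA8 libraries and 21.4 and 22.7 RPM in shCTRL (-0.32, adjusted p = 0.0271, or -0.02 on the median-ratio scale). Its call was lost without shCTRL replicate 2 (-0.28, adjusted p = 0.134), shCDCA8 replicate 1 (-0.32, adjusted p = 0.102) or shCDCA8 replicate 2 (-0.32, adjusted p = 0.0936). Relative to the summed RPM of the 14 core subunit genes, the 4 chaperone genes held 0.0513 and 0.0531 in shCDCA8 and 0.0953 and 0.0940 in shCTRL, a ratio that a single factor per library does not change and that was 0.552 times as high after knockdown.

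Of the 5 genes for alternative caps and the inhibitor 3 fell and none rose (median -0.32), and 2 fell under median-ratio scaling (median -0.02). These falls were 60% of the 5, beside 47.6% of all kept genes, and 40% beside 33.6% under median-ratio scaling, so they were near the background. PSME3, the nuclear activator PA28 gamma, had 100 and 101 RPM in shCDCA8 and 142 and 155 RPM in shCTRL (-0.55 ± 0.0946, adjusted p = 0.000278, or -0.24 and adjusted p = 0.0192 under median-ratio scaling). PSMF1, the inhibitor PI31, had 58.6 and 60.6 RPM in shCDCA8 and 84.9 and 92.2 RPM in shCTRL (-0.56 ± 0.0999, adjusted p = 0.000376, or -0.25 and adjusted p = 0.0187 under median-ratio scaling). Relative to the core subunit genes, PSME3 stood at 0.110 and 0.116 in shCDCA8 and 0.183 and 0.192 in shCTRL, and PSMF1 at 0.0643 and 0.0700 in shCDCA8 and 0.109 and 0.114 in shCTRL.

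PSME1 and PSME2 encode the interferon-inducible activator PA28 alpha/beta. PSME1 had 19.4 and 20.6 RPM in shCDCA8 and 24.8 and 25.6 RPM in shCTRL (-0.32, adjusted p = 0.0263, or -0.02 under median-ratio scaling), and its call was lost on leaving out any 1 library (-0.34, -0.30, -0.28 and -0.36, adjusted p 0.0539 to 0.152). PSME2 had 14.5 and 11.1 RPM in shCDCA8 and 12.9 and 13.4 RPM in shCTRL (-0.05, or 0.24 under median-ratio scaling). PSME4, the activator PA200, had 23.8 and 23.1 RPM in shCDCA8 and 26.3 and 21.8 RPM in shCTRL (-0.03, or 0.27). The groups overlapped for PSME2 and PSME4, and neither was called on either scale.

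**Figure D2:**
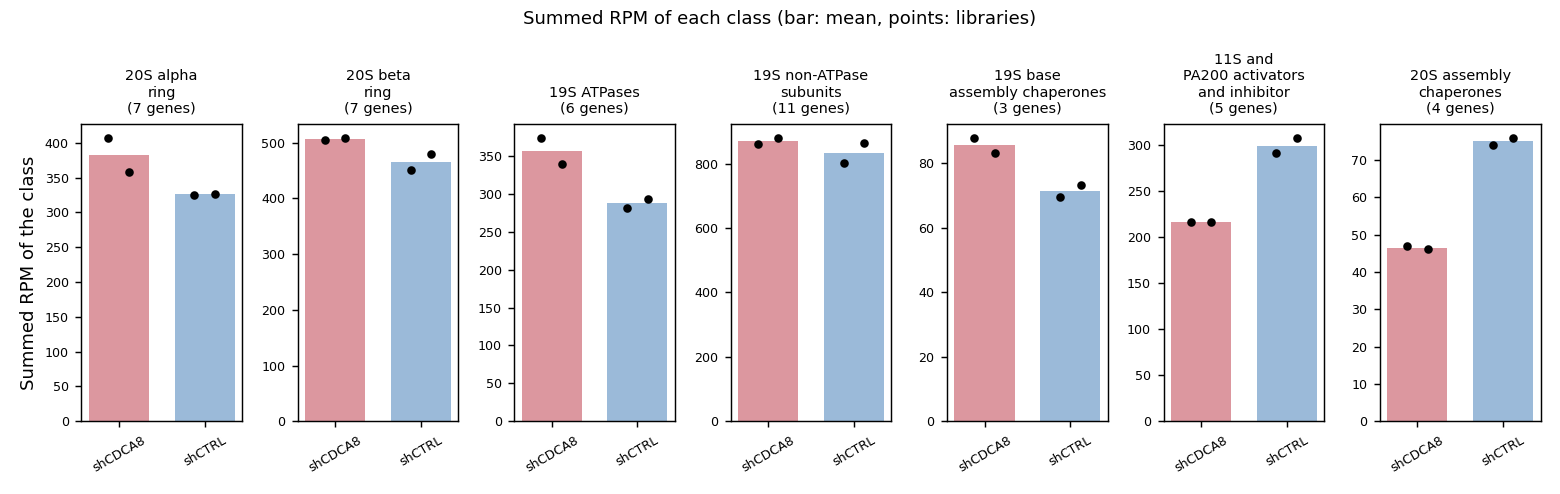
Summed RPM of each class in shCDCA8 and shCTRL (bar, mean; points, the 2 libraries), each panel on its own axis from 0. The bars for the rings and the 19S base chaperones are higher in shCDCA8, those of the activators and inhibitor and of the 20S assembly chaperones lower, and the points overlap for the 19S non-ATPase subunits.

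Summed over a class, the alpha ring genes had 407 and 357 RPM in shCDCA8 and 325 and 327 RPM in shCTRL, and the ATPases 374 and 340 RPM in shCDCA8 and 282 and 293 RPM in shCTRL. The beta ring genes had 504 and 509 RPM in shCDCA8 and 451 and 480 RPM in shCTRL. The activators and inhibitor had 217 and 216 RPM in shCDCA8 and 291 and 308 RPM in shCTRL, and the core chaperones 46.8 and 46.0 RPM in shCDCA8 and 74.0 and 75.9 RPM in shCTRL. All 43 genes together had 2498 and 2432 RPM in shCDCA8 and 2293 and 2423 RPM in shCTRL, 1.05 times the control mean. As a share of the reads in the gene rows they held 0.750% and 0.710% in shCDCA8 and 0.558% and 0.555% in shCTRL. The total thus differed little on the deposited scale and more as a share of the gene rows, which themselves took a smaller part of the divisor in shCDCA8. In bulk RNA, fewer cells in a given state and less RNA per cell cannot be told apart.

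**Figure D3:**
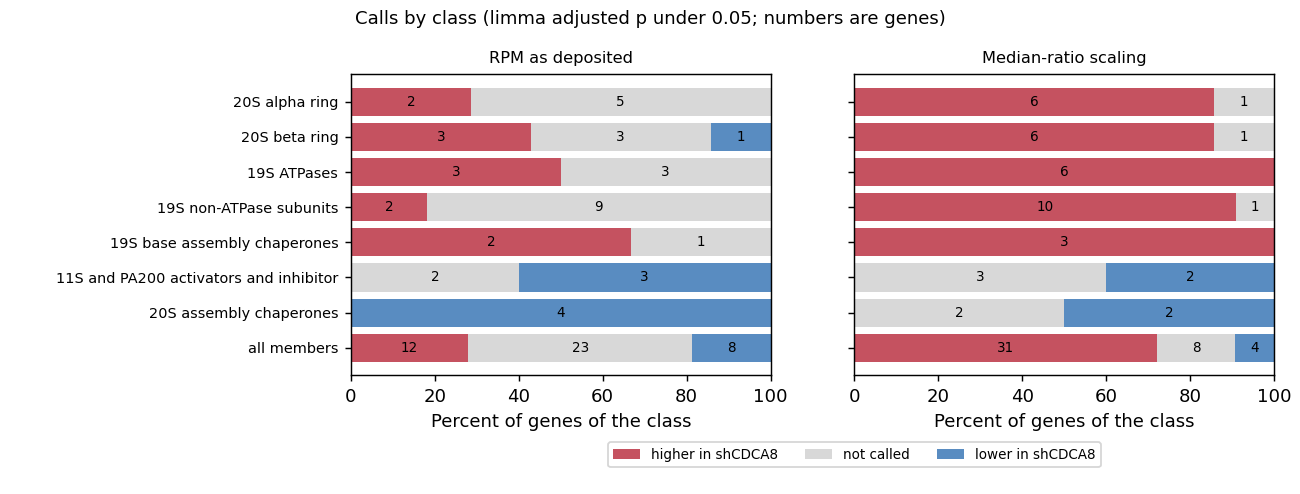
Percent of the genes of each class called higher (red), not called (grey) or called lower (blue) in shCDCA8 on the deposited RPM scale (left) and after median-ratio scaling (right), with gene counts in the bars. Over all members the counts were 12, 23 and 8 as deposited and 31, 8 and 4 after scaling, and no core assembly chaperone was called higher on either scale.

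2 of the members that rose most also differed between the libraries of a group. PSMC6 was higher in replicate 1 than in replicate 2 by 0.49 (log2) in shCDCA8 and 0.43 in shCTRL, and PSMA3 by 0.34 and 0.31. Across the 43 members, Pearson's r between the log2 fold change and the replicate 1 minus replicate 2 difference was 0.51 in shCDCA8 and 0.35 in shCTRL, a description only, since all points come from the same 4 libraries. Over the 11833 kept genes these values were 0.15 and 0.33. The SD of the replicate difference over members was 0.14 in shCDCA8 and 0.13 in shCTRL, and that of the log2 fold change 0.41. PSMD12 and PSMB6 differed by at most 0.10 between the replicates of either group, and PSMG3 by at most 0.04. What the replicate difference stands for, and its part in the rises, was not tested.

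**Figure D4:**
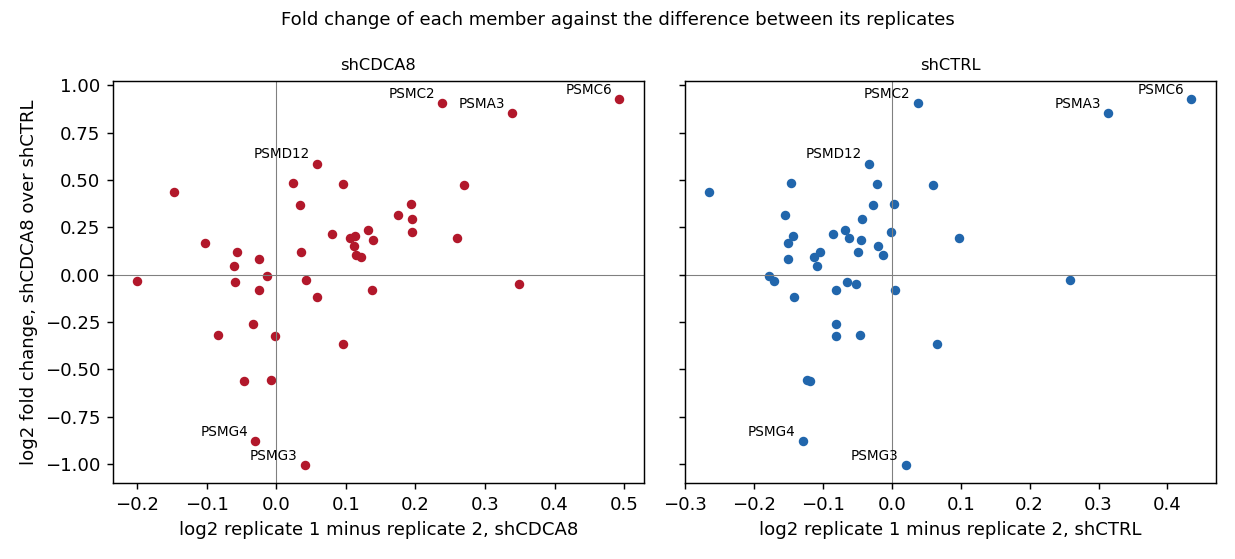
Log2 fold change (shCDCA8 over shCTRL) of each of the 43 members against the log2 difference between replicate 1 and replicate 2 of shCDCA8 (left) and shCTRL (right). PSMC6 and PSMA3 are far right in both panels, whereas PSMD12, PSMG3 and PSMG4 lie near 0 in the left panel.

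The immunoproteasome rows, which replace the proteolytic subunits in cells exposed to interferon, were set beside the members. PSMB8 had 6 and 4 reads in shCDCA8 and 31 and 32 reads in shCTRL, and PSMB9 had 15 and 10 reads in shCDCA8 and 5 and 2 reads in shCTRL. Both stayed under 1 RPM in every library and were not tested. PSMB10 had 9.40 and 10.1 RPM in shCDCA8 and 11.7 and 12.6 RPM in shCTRL (-0.30, adjusted p = 0.0558, or -0.01 under median-ratio scaling).

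Of 13 factors that bind or mature the proteasome, 2 rose and 4 fell (median 0.15; 8 and 2 under median-ratio scaling). POMP, the maturation factor that brings beta subunits into the core, rose to 120 and 102 RPM in shCDCA8, against 80.4 and 77.7 RPM in shCTRL (0.48 ± 0.106, adjusted p = 0.00159). PAAF1, a further chaperone of the ATPase ring, had 5.00 and 4.54 RPM in shCDCA8 and 13.6 and 16.0 RPM in shCTRL (-1.45 ± 0.137, adjusted p = 3.09e-06), whereas PSMD5 and PSMD10 rose. FBXO7, an F-box protein that binds PSMF1, had 24.2 and 25.1 RPM in shCDCA8 and 42.0 and 46.2 RPM in shCTRL (-0.81 ± 0.11, adjusted p = 4.78e-05). PAAF1 and FBXO7 fell under median-ratio scaling as well, by 1.17 and by 0.51 on the log2 scale.

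NFE2L1 encodes the transcription factor that is known to raise proteasome genes when the complex is inhibited, after release from the endoplasmic reticulum and processing. Its mRNA had 109 and 105 RPM in shCDCA8 and 163 and 174 RPM in shCTRL (-0.65 ± 0.0932, adjusted p = 7.77e-05, or -0.34 and adjusted p = 0.00521 under median-ratio scaling). MAFG, which encodes a small MAF partner of this family, had 21.8 and 26.0 RPM in shCDCA8 and 10.6 and 12.3 RPM in shCTRL (1.0 ± 0.134, adjusted p = 4.47e-05). SEL1L, of the ubiquitin ligase complex of the endoplasmic reticulum, fell (-0.53, adjusted p = 0.00212) but was not called under median-ratio scaling (-0.22, adjusted p = 0.132). Of the 12 genes of this pathway 1 rose and 3 fell (median -0.07; 6 and 1 under median-ratio scaling).

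Of 11 ubiquitin genes, E1 enzymes and shuttle factors, 3 rose and 3 fell (median -0.09; 6 and 0 under median-ratio scaling). UBA6, an E1 enzyme, rose to 3.92 and 3.65 RPM in shCDCA8, against 2.48 and 1.73 RPM in shCTRL (0.63, adjusted p = 0.00258). UBQLN2, a shuttle factor, fell (-0.47, adjusted p = 0.0026) and was not called under median-ratio scaling (-0.16, adjusted p = 0.124).

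The 19S lid shares its subunit folds with the COP9 signalosome and with eIF3, and the CCT chaperonin is another large cytosolic ring of many subunits, so these 3 complexes were set beside the members. Of 9 signalosome genes 6 rose and 3 fell (median 0.29; 6 and 1 under median-ratio scaling), of 12 eIF3 genes 4 rose and 1 fell (median 0.10; 11 and 0), and of 8 CCT genes 5 rose and none fell (median 0.33; 7 and 0). The signalosome and CCT medians were above the 0.19 of the 31 core and cap subunit genes, and the eIF3 median was below it. All 3 medians were above the -0.27 of all kept genes, so a position above the median of all genes was not particular to the proteasome. The genes with the smallest p were COPS7B (-1.37), COPS2 (1.56) and COPS5 (0.69), EIF3J (0.96), EIF3E (0.63) and EIF3L (-0.34), and CCT8 (1.14), CCT6A (0.68) and TCP1 (0.50). EIF3L was not called under median-ratio scaling (-0.03).

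**Figure D5:**
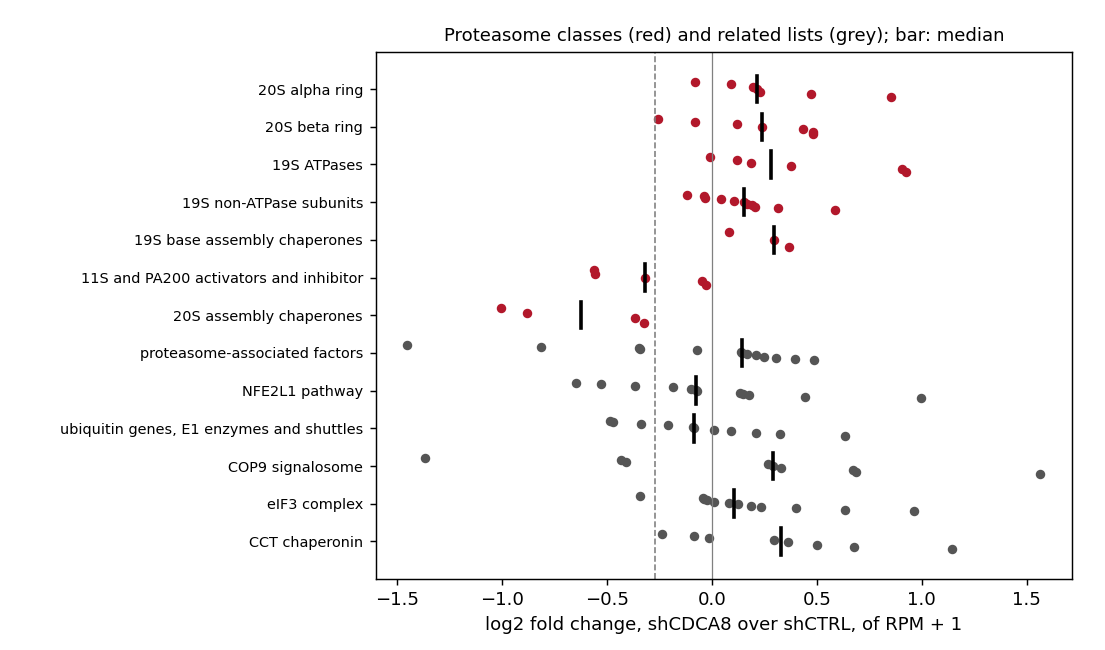
Log2 fold change (shCDCA8 over shCTRL, of RPM + 1) of each gene in the 7 proteasome classes (red) and in related lists (grey), with the median of each as a bar and the median of all kept genes (-0.27) as a dashed line. The medians of the 4 subunit classes lie between 0.15 and 0.28, and those of the 20S assembly chaperones and of the activators and inhibitor lie at -0.62 and -0.32.

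Reads of some members can be shared with near copies or neighbours. RefSeq names at least 1 pseudogene for 21 of the 43 members, among them PSMC1 with 13, PSME2 with 6, PSMC6 with 3 and PSMC2 with 2, and another RefSeq gene overlaps the span of 18 members, among them PSMA3 (an antisense gene), PSMC2 and PSMD6. Whether counting used strand is not stated in the labels, so values of these genes are uncertain to that extent. PSMB6, PSMG4, PSME3 and PSMB5 had neither a named pseudogene nor an overlapping gene.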

How the data were processed

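PolyA RNA libraries of C4-2 cells (2 shCDCA8, 2 shCTRL) were analysed from the table deposited by the authors, which gives RPM per gene. Per the submitters' processing notes the tools were cutadapt, TopHat, HTSeq and edgeR, and the build hg19, without versions or roles. The small RNA table holds no subunit genes and was not used. Each RPM value was a whole multiple of 1 step per library (100% came out whole to a tolerance of 0.01), so reads were recovered, on which edgeR called 7807 genes. The divisor exceeds the sum of the rows, so RPM also moves with reads outside them.

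Log2(RPM + 1) was fitted with limma 3.58.1 in R 4.3.3 (trend, two-sided) over the 11833 genes that reached 1 RPM in 2 or more libraries. A call is an adjusted p under 0.05 over all of them, and SD or SE rest on 2 libraries per group. The SE and p of limma also draw the variance of each gene towards a trend over all kept genes. Alternatives were pseudocounts of 0.1 and 5 RPM, a filter of 5 RPM or none, 3 scalings, limma without trend, a replicate block, each library left out, and edgeR 4.0.16 and DESeq2 1.42.0 on the recovered reads. The fit was also run on simulated data, in which few genes changed, in both directions, and the whole table was not shifted. That run therefore does not show how the calls behave under the shift seen here. Within groups the replicates differed by more than the counting of reads alone gives. Chi-square over genes divided by its degrees of freedom was 8.34 in shCDCA8 and 6.90 in shCTRL. These values cannot tell separate cultures from repeated handling of the same culture or library.

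Members, lists and tests were chosen with earlier results of these data known. Every member is named. Values in every library are given per class for the 2 smallest p and the highest and lowest fold change. Other called or role-defining members were added after their values were seen. Up to 3 genes are named per related list, with ADRM1 and SHFM1 added as cap subunits after their values were seen. The values of 1 gene of these lists are not reported here. Levels were not compared between genes, because no transcript lengths were at hand.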

Additional observations from a re-analysis of the deposited data

How the results depend on the processing

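The number of proteasome genes that rose was 12 in the main analysis and depended on the scaling: it was 31 with median-ratio scaling, row-sum scaling and edgeR, 30 with quantile normalization and DESeq2, and 7 to 14 on leaving out 1 library. The number that fell was 8, and 4 under each of these scalings and count tests, 7 without trend and 4 to 5 on leaving out 1 library. The median log2 fold change was 0.12, and 0.43, 0.44, 0.36, 0.43 and 0.43 with median-ratio, row-sum and quantile scaling, edgeR and DESeq2, and 0.10 to 0.16 on leaving out 1 library. Levels per coding length could not be computed, because no lengths were at hand, so they and the planned comparison with undivided RPM were not run. With 2 libraries a group, leaving 1 out leaves a lone library assumed to vary like the other group.

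Whether the replicate numbers pair the samples cannot be told from only 2 pairs. Between the replicate differences of the groups, Pearson's r was 0.31 over 11833 genes. With the replicate block 20 members rose, 8 fell, and the median stayed at 0.12; with the block and median-ratio scaling 34 rose and 4 fell, with a median of 0.43.

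Values that turned positive under median-ratio, row-sum and quantile scaling, edgeR, DESeq2, and block with median-ratio scaling were, in that order, 0.22, 0.24, 0.17, 0.23, 0.23 and 0.22 for PSMA5, 0.052, 0.066, 0.024, 0.047, 0.053 and 0.052 for PSMB4, 0.23, 0.24, 0.15, 0.22, 0.23 and 0.23 for PSMB5, and 0.30, 0.31, 0.20, 0.30, 0.30 and 0.30 for PSMC4. They were 0.19, 0.20, 0.10, 0.19, 0.19 and 0.19 for PSMD11, 0.28, 0.29, 0.22, 0.28, 0.28 and 0.28 for PSMD3, and 0.27, 0.29, 0.22, 0.27, 0.27 and 0.27 for PSMD8. They were 0.24, 0.26, 0.19, 0.27, 0.28 and 0.24 for PSME2, and 0.27, 0.28, 0.23, 0.27, 0.27 and 0.27 for PSME4. PSMB10 was at 0.0014 with row-sum scaling. On leaving out 1 library, signs changed for PSMC4 (-0.098 to 0.081), PSMD3 (-0.13 to 0.068), PSME2 (-0.22 to 0.13), PSME4 (-0.16 to 0.10) and PSMD2 (-0.0092 to 0.099). Of these, PSMB4 alone was called in the main analysis. The scalings remove the shift of the whole table by construction.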
